A study of Mus musculus with 12 samples.

Results

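The Toll-like receptors and the CD14 receptor complex were followed in the liver of mice fed a fast-food diet, as the 10 genes Tlr1, Tlr2, Tlr4, Tlr5, Tlr7, Tlr8, Tlr13, Cd14, Ly96 and Myd88. The members were chosen by gene name from the 54532 genes of the count tables. The rule itself uses no measured value, but the list was drawn up with earlier results of these data known. Each of the 10 names had a single row, and all 10 passed the filter on low counts in every comparison. The series holds 12 whole-liver RNA-sequencing libraries in 4 groups of 3. Male PPARγ flox/flox mice, 8 weeks of age at injection, received AAV8.TBG.PI.Cre.rBG, a virus that carries Cre recombinase (PPARγ-KO). Control littermates received AAV8.TBG.PI.eGFP.WPRE.bGH, which carries a green fluorescent protein, and are called wild-type (WT) although they also carry the floxed gene. All mice were then fed a fast-food diet (FFD) rich in saturated fat, cholesterol and sucrose, with fructose and glucose in the drinking water, for 2 or 5 months. No library from a mouse on a normal diet was analysed here. The TBG promoter drives Cre in hepatocytes only, so macrophages, endothelial cells and the other cells of the liver keep an intact Pparg gene in both genotypes.

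Pparg, the targeted gene, was not lower in the libraries labelled PPARγ-KO. Its level was 38.8, 41.4 and 37.6 normalized CPM (counts scaled to a common library size) in the WT libraries at 2 months and 50.4, 66.5 and 52.0 in those labelled PPARγ-KO. At 5 months it was 36.9, 41.4 and 37.1 in WT and 86.5, 92.9 and 75.0 in those labelled PPARγ-KO. The groups did not overlap at either time, and the difference was 1.43-fold at 2 months (edgeR adjusted p = 0.0309) and 2.22-fold at 5 months (edgeR adjusted p = 2.57e-06). The count of a gene adds up reads over all its exons, including those outside the floxed part, so that it does not check the deletion. The study itself checked the knockout by Western blot and reports that PPARγ protein was lost in PPARγ-KO liver at both times. Cidec and Plin2, lipid droplet genes that are known targets of PPARγ and were looked at with results of these data known, ran the other way. Cidec lay at 99.8 to 177 normalized CPM in WT and at 7.52 to 13.4 in PPARγ-KO at 2 months, and at 141 to 148 and 17.2 to 26.5 at 5 months (edgeR adjusted p = 0.0117 and 2.91e-06). Plin2 was 1.66-fold lower in PPARγ-KO at 2 months and 1.68-fold lower at 5 months (edgeR adjusted p = 0.011 and 1.25e-05). Every direction given below uses the genotype in the labels.

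Toll-like receptors bind molecules typical of microbes. TLR1, TLR2, TLR4 and TLR5 lie at the cell surface and bind lipopeptides, lipopolysaccharide or flagellin, whereas TLR7, TLR8 and TLR13 lie in endosomes and bind RNA. CD14 hands lipopolysaccharide to TLR4 and to its partner MD-2, the product of Ly96, and MyD88 is the adaptor through which all of these receptors activate NF-κB and the inflammatory genes behind it. In liver, Kupffer cells, the resident macrophages, are known for a strong response through this pathway to products of gut bacteria in portal blood, and hepatocytes and sinusoidal endothelial cells carry several of the receptors as well.

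The libraries held 16367775 to 27452284 counted reads each. Counts per library lay between 33 and 176 for Ly96 and Tlr1 and between 102 and 634 for Tlr5. Hepatocyte markers summed to between 55200 and 86300 normalized CPM and none of them was at 0, so the libraries carried the expression of the tissue named in the labels. The labels number the libraries of a group as repeats without saying that each came from its own mouse, so p-values measure the spread between these libraries, which may be technical. The libraries of the 2 time points cannot be told apart from any batch in which they were prepared.

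To compare levels between genes, normalized CPM was divided by the gene length in kilobases (CPM per kb). In WT liver at 2 months, Tlr5 stood highest at 6.53 ± 0.287 CPM per kb (SD, n = 3), followed by Myd88 at 5.17 ± 0.146 and Cd14 at 3.69 ± 1.4, and the libraries of Tlr5 and Myd88 did not overlap. The lowest 5 members, Tlr1, Tlr13, Tlr7, Tlr8 and Tlr4, lay between 1.17 and 0.892 CPM per kb, and neighbours in that order overlapped. In WT liver at 5 months the order was different. Cd14 was highest at 14.4 ± 3.95 CPM per kb, Myd88 followed at 7.01 ± 0.667 and Ly96 at 4.89 ± 0.849, and Tlr5 was in place 5 at 2.89 ± 0.165. In the libraries labelled PPARγ-KO, Myd88 led at 2 months at 4.85 ± 0.355 CPM per kb and Cd14 led at 5 months at 7.73 ± 0.626. Tlr4, the lipopolysaccharide receptor, stood last in WT at 2 months, in WT at 5 months at 1.18 ± 0.147 and in the 5-month libraries labelled PPARγ-KO at 0.609 ± 0.0172 CPM per kb. All libraries are shown in the plot of the members' levels.

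**Figure D1:**
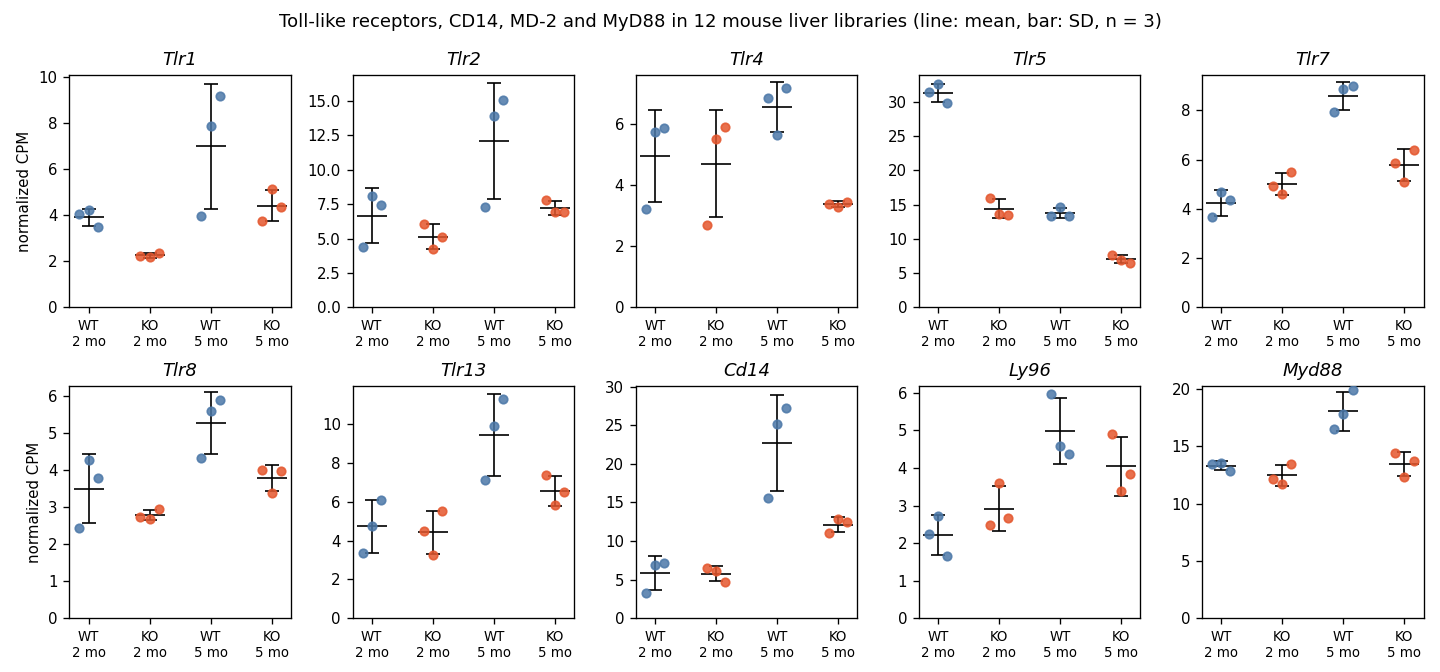
Normalized CPM of the 10 members (1 panel each) in the 4 groups of 3 libraries, WT in blue and labelled PPARγ-KO in red, after 2 and 5 months of FFD. Points are libraries, lines the group mean and bars the SD. Tlr5 is highest in WT at 2 months, whereas Cd14 and the other members have their highest mean in WT at 5 months.

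Tlr5, the receptor for bacterial flagellin, differed in all 4 comparisons. The gene lies on chromosome 1 at 182954788-182976044 of the plus strand (mm10) and is annotated with 5 exon blocks. Its level in WT liver was 31.4, 32.6 and 29.9 normalized CPM at 2 months and 13.4, 14.7 and 13.4 at 5 months. In the libraries labelled PPARγ-KO it was 16.0, 13.7 and 13.5 at 2 months and 7.60, 6.97 and 6.44 at 5 months. The WT libraries at 5 months thus reached about the level that those labelled PPARγ-KO had at 2 months. The genotypes did not overlap at either time, nor did the times within a genotype. Tlr5 was 2.18-fold lower in PPARγ-KO than in WT at 2 months (log2 fold change −1.12, SE 0.0979, edgeR adjusted p = 7e-04). At 5 months it was 1.95-fold lower (log2 fold change −0.97, SE 0.116, edgeR adjusted p = 0.000114). From 2 to 5 months it fell 2.26-fold in WT (edgeR adjusted p = 6.84e-06) and 2.05-fold in the libraries labelled PPARγ-KO (edgeR adjusted p = 5.42e-05). The difference between the genotypes changed little from 2 to 5 months, by 0.14 in log2 (SE 0.143, edgeR adjusted p = 0.699). All 4 calls held under each of the 13 other settings run for it, those that left out a library included. Most endothelial markers were also lower at 5 than at 2 months, with 4 of 7 called lower in WT and 5 of 7 in PPARγ-KO. In each genotype 1 of the 7 was called higher. It was Clec4g in WT (log2 fold change 0.67, edgeR adjusted p = 0.000302) and Lyve1 in PPARγ-KO (0.42, edgeR adjusted p = 0.013). The sums of the endothelial markers went from 369 to 464 normalized CPM at 2 months to 282 to 309 at 5 months in WT, and from 384 to 413 to 256 to 274 in PPARγ-KO. At 2 months, where Tlr5 was lower in PPARγ-KO, these sums overlapped between the genotypes. There 0 of the 7 endothelial markers were called between the genotypes in edgeR or DESeq2, with 2 at an unadjusted p under 0.05. Their median log2 change was −0.14. Stab1 fell 2.08-fold and Kdr 1.82-fold in WT, and 1.91-fold and 1.94-fold in PPARγ-KO, and their part in the fall of Tlr5 was not tested.

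The promoter of Tlr5 is shown because Tlr5 was the member that was lower in PPARγ-KO at both times. Those of Tlr1 and Tlr13 are shown because they held the one motif found, which is in capitals: the letters GAGGAAG on either strand, of the kind that the myeloid factor PU.1 binds. Each runs 5′ to 3′ on the strand of the gene, from 250 bases before to 50 bases after a gene start of RefSeq (GRCm38.p6, the same coordinates as mm10). Tlr1 has another start in RefSeq, which is not shown.
Tlr5, chr1:182954538-182954837, plus strand: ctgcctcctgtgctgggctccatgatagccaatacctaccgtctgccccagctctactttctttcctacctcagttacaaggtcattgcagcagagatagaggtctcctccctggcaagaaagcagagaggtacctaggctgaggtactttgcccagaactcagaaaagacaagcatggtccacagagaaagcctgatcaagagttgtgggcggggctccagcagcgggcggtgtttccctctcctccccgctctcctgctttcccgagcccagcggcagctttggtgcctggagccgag
Tlr1, chr5:64933509-64933808, minus strand: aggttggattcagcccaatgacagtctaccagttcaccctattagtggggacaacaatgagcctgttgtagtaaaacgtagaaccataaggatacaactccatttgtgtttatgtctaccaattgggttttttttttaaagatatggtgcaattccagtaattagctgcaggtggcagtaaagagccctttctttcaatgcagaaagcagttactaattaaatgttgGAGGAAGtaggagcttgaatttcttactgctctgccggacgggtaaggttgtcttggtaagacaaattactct
Tlr13, chrX:106143025-106143324, plus strand: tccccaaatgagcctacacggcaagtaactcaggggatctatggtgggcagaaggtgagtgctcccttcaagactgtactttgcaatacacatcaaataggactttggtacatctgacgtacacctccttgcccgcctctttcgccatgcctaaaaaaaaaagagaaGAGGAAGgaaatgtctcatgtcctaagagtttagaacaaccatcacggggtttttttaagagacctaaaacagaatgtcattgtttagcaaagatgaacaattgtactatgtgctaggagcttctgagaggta
The motif begins 23 bases before the start in Tlr1 and 83 bases before it in Tlr13. RefSeq promoters were at hand for 6 of the 10 members (Tlr1, Tlr2, Tlr5, Tlr8, Tlr13 and Myd88), with 7 starts in all. The letters GAGGAAG stood in 2 of these 7 and in 13.6% of all 32851 promoters of the table. The AP-1 motif TGANTCA was in 0 of the 7 and in 7.81% of all, and a motif of the NF-κB type (GGG, any 2 bases, TTTCC) was in 0 of the 7 and in 1.63% of all. The 3 motifs do not contain each other, and a match of letters in these windows is a description and not a measured site.

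At 2 months, Tlr5 was the only one of the 10 members called between the genotypes, against 1.78% of all 14573 genes called lower in PPARγ-KO. Tlr1, which pairs with TLR2 to bind bacterial lipopeptides, came next. The gene lies on chromosome 5 at 64924679-64933563 of the minus strand. Its level was 4.04, 4.22 and 3.50 normalized CPM in WT and 2.23, 2.17 and 2.38 in the PPARγ-KO-labelled libraries. The groups did not overlap, but the 1.73-fold difference did not pass the test (log2 fold change −0.79, SE 0.197, edgeR adjusted p = 0.0594). It was called by DESeq2, with library size as the only scaling and with no filter, and in 0 of the 6 fits that left out a library. Tlr1 and Tlr5 were the 2 members of 10 whose groups did not overlap in this direction, against 12.0% of all genes. Tlr1 shares 259 of its 3282 windows of 100 transcript bases with the neighbouring gene Tlr6, so its reads may be split between them.

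The other 8 members overlapped between the genotypes at 2 months. Their log2 fold changes ran from −0.38 for Tlr2 (SE 0.24) to 0.39 for Ly96 (SE 0.259), with edgeR adjusted p values of 0.447 or more. Cd14, the lipopolysaccharide co-receptor, lay at 3.27, 6.95 and 7.20 normalized CPM in WT and at 6.52, 6.10 and 4.69 in the PPARγ-KO-labelled libraries. Tlr4 lay at 3.22, 5.76 and 5.88 in WT and at 2.69, 5.53 and 5.92 in those labelled PPARγ-KO. In both genes the first WT library was the lowest of its group. The SEs of 0.286 for Cd14 and 0.33 for Tlr4 in log2 leave room for differences in either direction at 2 months. The median log2 fold change of the 10 members was −0.09, beside 0.00 over all genes tested.

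At 5 months, 5 of the 10 members were called lower in the libraries labelled PPARγ-KO and none higher, against 9.51% of all 14138 genes called lower and 8.90% higher. All 10 log2 fold changes were negative, with a median of −0.62 beside −0.01 over all genes tested. The groups did not overlap, with PPARγ-KO below WT, in 6 members (Tlr4, Tlr5, Tlr7, Tlr8, Cd14 and Myd88), against 19.0% of all genes. Some of these genes are named in tables of the study itself, which were drawn from the same libraries. In whole liver, fewer cells of a type and less RNA per cell cannot be told apart. The count of members called at 5 months moved with single libraries. It was 9 without the first WT library, 3 without the second, 3 without the third, and 2 without the second library labelled PPARγ-KO. The 4 members gained without the first WT library were Tlr1, Tlr2, Tlr8 and Tlr13, all lower, with edgeR adjusted p values of 0.00189, 9.14e-05, 0.0321 and 0.0047. DESeq2 called 6 of the 10, adding Tlr2.

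**Figure D2:**
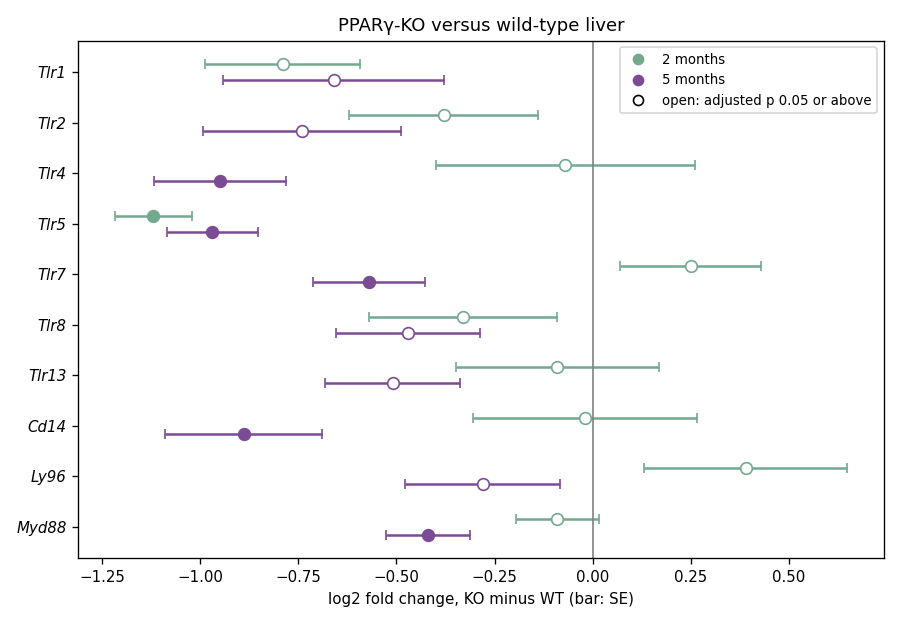
Log2 fold change of each member, PPARγ-KO minus WT, at 2 months (green) and 5 months (purple), with the SE as bar, filled where the edgeR adjusted p was below 0.05. Tlr5 alone is filled at 2 months, at −1.12, and Tlr4, Tlr5, Tlr7, Cd14 and Myd88 are filled at 5 months, where all 10 points lie below 0.

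Among the surface receptors, Tlr4 had the largest called difference at 5 months after Tlr5. The gene lies on chromosome 4 at 66827584-66930284 of the plus strand. Its level was 6.87, 5.65 and 7.20 normalized CPM in WT and 3.40, 3.28 and 3.47 in the PPARγ-KO-labelled libraries. The PPARγ-KO libraries lay close together and all below the lowest WT library. The difference was 1.93-fold (log2 fold change −0.95, SE 0.168, edgeR adjusted p = 0.00166), and it was called in all 13 other settings. Tlr2, on chromosome 3 at 83836272-83841767 of the minus strand, encodes the receptor for lipopeptides that pairs with TLR1 or TLR6. It lay at 7.29, 13.9 and 15.1 in WT and at 7.78, 6.92 and 6.94 in those labelled PPARγ-KO. The first WT library fell within the PPARγ-KO range while the other two lay well above it, and the log2 change of −0.74 did not pass the test (SE 0.252, edgeR adjusted p = 0.082). Tlr1 gave the same picture, with 3.97, 7.87 and 9.19 in WT, 3.77, 5.13 and 4.35 in those labelled PPARγ-KO, and a log2 change of −0.66 (SE 0.281, edgeR adjusted p = 0.142).

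Of the endosomal RNA receptors, Tlr7 was called at 5 months. Tlr7 lies on chromosome X at 167304929-167330558 of the minus strand, beside Tlr8. Its level was 7.94, 8.86 and 8.98 normalized CPM in WT and 5.85, 5.07 and 6.37 in the PPARγ-KO-labelled libraries. The groups did not overlap and differed 1.48-fold (log2 fold change −0.57, SE 0.142, edgeR adjusted p = 0.0137). The call was lost without the second WT library (edgeR adjusted p = 0.0635), the third WT library (0.0697) or the second library labelled PPARγ-KO (0.0559). Tlr8, at 167242696-167264329 of the same strand, was at 4.32, 5.59 and 5.90 in WT and at 4.01, 3.38 and 3.97 in those labelled PPARγ-KO. Its groups lay apart by a small gap, and the log2 change of −0.47 was not called (SE 0.183, edgeR adjusted p = 0.0979). Tlr13, on chromosome X at 106143204-106160493 of the plus strand, encodes the receptor for bacterial ribosomal RNA. It was at 7.11, 9.91 and 11.3 in WT and at 7.36, 5.84 and 6.50 in those labelled PPARγ-KO, where the first library reached into the WT range. Its log2 change of −0.51 missed the threshold (SE 0.173, edgeR adjusted p = 0.0565).

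Of the partners of TLR4, Cd14 was called at 5 months and Ly96 was not. Cd14, on chromosome 18 at 36725074-36726736 of the minus strand, lay at 15.6, 25.2 and 27.2 normalized CPM in WT and at 11.0, 12.9 and 12.5 in the PPARγ-KO-labelled libraries. The first WT library was well below the other WT libraries and still above all those labelled PPARγ-KO. The difference was 1.86-fold (log2 fold change −0.89, SE 0.201, edgeR adjusted p = 0.0183). The call was lost without the second WT library (edgeR adjusted p = 0.0709) and without any 1 of the libraries labelled PPARγ-KO (0.0718, 0.0579 and 0.0699 in their order). Ly96, on chromosome 1 at 16688051-16709611 of the plus strand, encodes the TLR4 partner MD-2. It lay at 5.98, 4.60 and 4.38 in WT and at 4.91, 3.38 and 3.85 in those labelled PPARγ-KO. The groups overlapped and the log2 change of −0.28 was not called (SE 0.198, edgeR adjusted p = 0.372).

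Myd88, the shared adaptor, had the smallest called difference at 5 months. The gene lies on chromosome 9 at 119335934-119341411 of the minus strand. Its level was 16.5, 17.8 and 19.9 normalized CPM in WT and 14.4, 12.3 and 13.7 in the PPARγ-KO-labelled libraries. The groups did not overlap and differed 1.33-fold (log2 fold change −0.42, SE 0.107, edgeR adjusted p = 0.0163). The call was lost without the third WT library (edgeR adjusted p = 0.0916) or the second library labelled PPARγ-KO (0.0627). Myd88 overlaps 1736 bases of Acaa1a, a gene for a peroxisomal thiolase on the other strand. Myd88 also lies wholly within Slc22a14, a gene on the same strand with group means of 0.0525 to 0.227 normalized CPM. Acaa1a had a mean of 263 normalized CPM in WT and 181 in PPARγ-KO at 5 months, a 1.44-fold lower level (edgeR adjusted p = 0.00059), and at 2 months it was 1.47-fold lower while Myd88 differed by −0.09 on the log2 scale. Strand use in the counting is not given in the sources used here, so reads of the shared bases cannot be assigned.

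Markers of several cell types moved with these members, and their part in the result was not tested. At 5 months, 10 of 11 macrophage and Kupffer cell markers were called lower in PPARγ-KO, with a median log2 change of −0.89. Their summed level ran from 775 to 963 normalized CPM in the libraries labelled PPARγ-KO and from 1530 to 1750 in WT. At 2 months, 1 of the 11 was called, and it was higher, and the sums were 580 to 668 in PPARγ-KO and 529 to 699 in WT. Of 6 monocyte markers, 4 were called lower at 5 months and 2 at 2 months, and their summed level at 5 months was 146 to 229 normalized CPM in PPARγ-KO and 319 to 439 in WT. Of the neutrophil markers, 2 of the 3 tested were called lower at 5 months, and their sums were 4.86 to 7.27 in PPARγ-KO and 8.47 to 14.6 in WT. Ly6g, a defining marker, was at or near 0 in all groups, with means of 0.0172 and 0.0194 normalized CPM in WT at 2 and 5 months. Of the 3 B cell markers tested at 5 months, 2 were called lower, with a median of −1.57 in log2 and sums of 1.45 to 2.45 in PPARγ-KO beside 4.38 to 6.00 in WT. The sums of the stellate cell markers lay at 438 to 474 in PPARγ-KO and at 516 to 554 in WT at 5 months, with 1 of 6 called lower. Of the T and NK cell markers 0 of 6 tested were called in edgeR at 5 months (2 at an unadjusted p under 0.05, 2 lower in DESeq2), and of the endothelial markers 3 of 7 were called lower. At 2 months, where Tlr5 was lower, the macrophage sums overlapped between the genotypes, while those of some other cell types lay apart with PPARγ-KO below WT. They were 8.54 to 12.8 normalized CPM beside 13.7 to 18.4 for dendritic cells, 5.07 to 6.10 beside 6.98 to 9.62 for neutrophils and 355 to 376 beside 444 to 468 for stellate cells. The dendritic cell marker Itgax (−1.21 in log2) and the stellate cell marker Dcn (−0.34) were called lower at 2 months (edgeR adjusted p = 0.018 and 0.0316). So were the monocyte markers Ccr2 (−1.18) and Cx3cr1 (−1.15), with edgeR adjusted p values of 0.0107 and 0.0401. Itgax, at means of 8.52 normalized CPM in WT and 3.66 in PPARγ-KO, was the dendritic cell marker with the highest level in WT. The dendritic list had a median log2 change of −0.08, with 2 of its 6 markers positive. The summed level of the hepatocyte markers, most of which was Alb, was higher in PPARγ-KO, at 73600 to 86300 normalized CPM beside 56900 to 71300 in WT at 2 months and at 73200 to 84600 beside 55200 to 59700 at 5 months. The single markers were mixed at 5 months, 4 of 7 positive and 3 negative, the latter Apoa1 (−0.01), Fgb (−0.01) and Cyp2e1 (−0.19). Of 7 tested, 0 were called at 2 months in edgeR (3 at an unadjusted p under 0.05, 2 in DESeq2) and 2 at 5 months, Alb and Hnf4a, both higher. Erythroid and cholangiocyte markers also went the other way from the members at 5 months. Of the erythroid markers 4 of 4 were positive (median 0.56 in log2), with Alas2 called higher (edgeR adjusted p = 0.00104). Of the cholangiocyte markers 3 of 4 were positive (median 0.47), with Sox9 called higher (edgeR adjusted p = 0.0102).

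Whether the genotype difference itself changed between 2 and 5 months was tested in 1 fit of all 12 libraries. None of the 10 members was called in edgeR, while 4 had an unadjusted p under 0.05 and 1.57% of all 15127 genes were called. DESeq2 called 1 member, Tlr7 (DESeq2 adjusted p = 0.0236). In edgeR, the change in the difference of Tlr7 was −0.83 in log2 (SE 0.219, unadjusted p = 0.00169, edgeR adjusted p = 0.0739). For Tlr4 it was −0.89 (SE 0.38, edgeR adjusted p = 0.281), for Cd14 −0.88 (SE 0.389, edgeR adjusted p = 0.323) and for Myd88 −0.34 (SE 0.148, edgeR adjusted p = 0.297). For these 3 genes the SEs leave room for changes from near 0 to well over the size measured. Ly96 had a change of −0.69 (SE 0.329), and the remaining 5 members lay between −0.44 and 0.14. That Tlr4, Cd14, Tlr7 and Myd88 were called at 5 months and not at 2 months is therefore not by itself a tested difference between the times. In the same fit 7 of 11 macrophage and Kupffer cell markers were called lower, with a median of −1.04 in log2.

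Over time, 6 of the 10 members were higher in WT liver at 5 than at 2 months, against 23.8% of all 14491 genes called higher. Tlr5 was lower, against 22.7% called lower. This comparison shares its 5-month WT libraries with that of the genotypes at 5 months. Cd14 rose the most among the members, from the 2-month values given above to 15.6, 25.2 and 27.2 normalized CPM, a log2 change of 1.96 (SE 0.341, edgeR adjusted p = 0.00431). Ly96 went from 2.24, 2.73 and 1.67 to 5.98, 4.60 and 4.38, so that every 5-month library lay above every 2-month library. Its log2 change was 1.17 (SE 0.24, edgeR adjusted p = 0.00246). Tlr7 rose from 3.65, 4.68 and 4.36 normalized CPM to 7.94, 8.86 and 8.98, a log2 change of 1.02 (SE 0.164, edgeR adjusted p = 0.000544). Tlr13 rose by 0.99 and Myd88 by 0.44 in log2 (edgeR adjusted p = 0.00627 and 0.00679). Cd14, Ly96, Tlr7, Tlr13 and Myd88 were called in all 13 other settings.

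Tlr1 rose by 0.84 in WT with overlapping groups (SE 0.281, edgeR adjusted p = 0.0323), and that call held in 7 of 13 other settings. Left-out libraries ended it for all but the first WT library at 5 months, with edgeR adjusted p values up to 0.136. Tlr2, Tlr8 and Tlr4 had log2 changes of 0.86, 0.59 and 0.41 that were not called (edgeR adjusted p = 0.063, 0.0614 and 0.17). Without the first 5-month WT library Tlr2 and Tlr8 were called (edgeR adjusted p = 0.00538 and 0.0433), and Tlr8 was also called without the second 2-month WT library (0.0432). With the replicate number as a block, 9 members were called, since Tlr2 (edgeR adjusted p = 0.00113) and Tlr8 (0.0256) were added. The groups did not overlap, with 5 months above 2 months, in 6 members, against 28.8% of all genes, and with 5 months below in Tlr5 alone, against 28.0%. Over the same time, 10 of 11 macrophage and Kupffer cell markers were called higher in WT, with a median log2 change of 1.41, and their part in the members' rise was not tested.

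In the libraries labelled PPARγ-KO, 4 members were higher at 5 than at 2 months, against 22.7% of all 14478 genes, and Tlr5 was lower, against 22.2%. Cd14 rose from 6.52, 6.10 and 4.69 to 11.0, 12.9 and 12.5 normalized CPM (log2 fold change 1.08, SE 0.147, edgeR adjusted p = 0.000156). Tlr1 rose from 2.23, 2.17 and 2.38 to 3.77, 5.13 and 4.35 (log2 fold change 0.96, SE 0.198, edgeR adjusted p = 0.00243). In both genes all 5-month libraries lay above all 2-month libraries, and both calls held in all 13 other settings. The times did not overlap in 5 members with 5 months above (Tlr1, Tlr2, Tlr8, Tlr13 and Cd14), against 28.2% of all genes, and in Tlr5 with 5 months below, against 27.5%. Tlr13 and Tlr2 had log2 changes of 0.55 and 0.49 (edgeR adjusted p = 0.0407 and 0.0309), and these calls were lost in 6 and 7 of the 13 settings. Of the libraries left out, that of Tlr13 held without the third 2-month or the second 5-month library alone, and that of Tlr2 without the first 2-month library alone, with edgeR adjusted p values up to 0.134 and 0.0993 otherwise. Ly96, at a log2 change of 0.48, was not called (edgeR adjusted p = 0.0975), and it was called without the second 2-month library (0.0479). Myd88 and Tlr7, called in WT, had log2 changes of 0.10 and 0.19 (edgeR adjusted p = 0.459 and 0.36). Tlr4 lay at 2.69, 5.53 and 5.92 at 2 months and at 3.40, 3.28 and 3.47 at 5 months, a log2 change of −0.49 that was not called (SE 0.268, edgeR adjusted p = 0.161). It was called lower without the first 2-month library, at −0.76 (edgeR adjusted p = 0.00918). Of the macrophage and Kupffer cell markers, 5 of 11 were called higher and 2 lower over this time, with a median log2 change of 0.52.

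**Figure D3:**
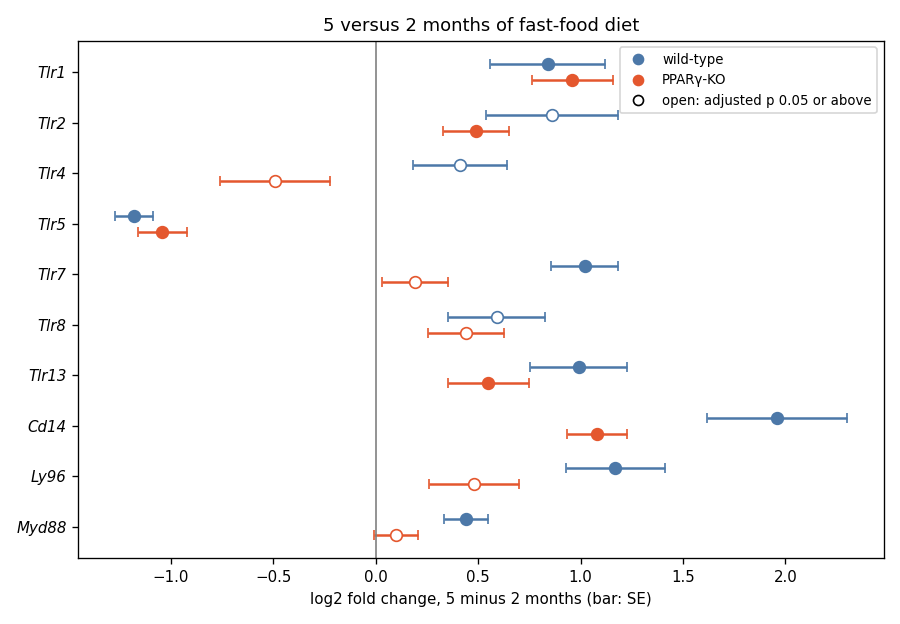
Log2 fold change of each member from 2 to 5 months of FFD in WT (blue) and in libraries labelled PPARγ-KO (red), with the SE as bar, filled where the edgeR adjusted p was below 0.05. Tlr5 is the member on the negative side in both genotypes with both points filled, at −1.18 and −1.04, and Cd14 has the largest positive values, 1.96 and 1.08.

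The other genes of the pathway were read from lists by role. Of the other Toll-like receptors (Tlr3, Tlr6, Tlr9, Tlr11 and Tlr12), 4 were tested and 0 called between the genotypes at either time in edgeR or DESeq2, with 1 at an unadjusted p under 0.05 at 2 months and 2 at 5 months. The log2 fold changes at 5 months were −1.24 for Tlr9, −0.92 for Tlr6, −0.12 for Tlr3 and 0.10 for Tlr12. Tlr12 had group means of 37 to 48.4 normalized CPM, above the mean of every member in each group. Its level per kb was not computed. Of 8 accessory and chaperone proteins, 3 were called lower at 5 months. At 2 months 0 were called in edgeR, 2 had an unadjusted p under 0.05, and DESeq2 called 1, Cd36, lower. Cd180, a relative of the receptors on B cells and myeloid cells, went from 10.3 ± 2.74 normalized CPM in WT to 3.63 ± 0.526 in PPARγ-KO (SD, n = 3, log2 fold change −1.49, edgeR adjusted p = 0.000366). Ly86, which encodes the CD180 partner MD-1, had a log2 change of −1.05, and Unc93b1, which brings the endosomal receptors from the endoplasmic reticulum, of −0.42 (edgeR adjusted p = 0.00102 and 0.00758). The other 5 genes of the list, which include Lbp, the lipopolysaccharide-binding protein of plasma, were not called.

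Of 20 adaptors, kinases and transcription factors, 2 were called higher and 2 lower at 5 months, near the shares over all genes (8.90% and 9.51%), with a median log2 change of −0.02. Ticam2, which encodes the TLR4 adaptor TRAM, was lower at −1.39 (edgeR adjusted p = 0.0316) from a low level of 0.988 ± 0.222 normalized CPM in WT (SD, n = 3). Irf5, a transcription factor downstream of MyD88, was lower at −0.72 (edgeR adjusted p = 0.00106). Tirap, which bridges TLR2 and TLR4 to MyD88, was higher at 0.42 (edgeR adjusted p = 0.00591), and Ikbkg, the regulatory subunit of the IκB kinase, was higher at 0.20 (edgeR adjusted p = 0.0479). DESeq2 called Irf5 and Tirap and neither Ticam2 nor Ikbkg. At 2 months 1 of the 19 tested was called in edgeR, Irf7, a transcription factor of the interferon response, higher at 0.42 (edgeR adjusted p = 0.0257). There 4 had an unadjusted p under 0.05, and DESeq2 called 2 higher, Irf7 and Irf3 (0.32 in edgeR, adjusted p = 0.0572). Of 9 inhibitors, 1 was called lower and 1 higher at 5 months, again near the shares over all genes (9.51% and 8.90%). Irak3, an inactive kinase that restrains MyD88 signalling, was lower at −1.01 (edgeR adjusted p = 0.0422). Cyld, a deubiquitinase, was higher at 0.23 (edgeR adjusted p = 0.0455), in edgeR and not in DESeq2. At 2 months 0 inhibitors were called by either tool, and 1 had an unadjusted p under 0.05.

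Of 20 genes known as targets of the receptors in macrophages, 15 were tested at 5 months and 11 were called lower in PPARγ-KO, with a median log2 change of −1.17. Tnf, Il6, Il10, Ptgs2 and Nos2 were too low to be tested. Acod1, which makes itaconate in activated macrophages, had the largest change of the list, from 2.88 ± 1.2 normalized CPM in WT to 0.379 ± 0.112 in PPARγ-KO (SD, n = 3, log2 fold change −2.87, edgeR adjusted p = 0.000379). Cd40, a co-stimulatory receptor, was at −1.72 and Ccl4, a chemokine, at −1.66 (edgeR adjusted p = 0.0038 and 0.00617). Saa3, an acute phase protein of macrophages and other cells, went from 22.5 ± 0.348 to 7.58 ± 1.39 normalized CPM (SD, n = 3, log2 fold change −1.55, edgeR adjusted p = 4.86e-06). Il1b, the interleukin-1β gene, had a log2 change of −1.43 (edgeR adjusted p = 0.000986). At 2 months 0 of 15 tested were called in edgeR, with a median of −0.21 and 4 at an unadjusted p under 0.05. DESeq2 called 2 of them lower at 2 months, Il1rn and Icam1, which are named here because of that call. The difference between the times was itself called for Acod1 at −3.09 and for Saa3 at −1.71 (edgeR adjusted p = 0.0171 and 0.00456). In that same test 7 of 11 macrophage and Kupffer cell markers were called lower as well, and their part in the result was not tested.

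**Figure D4:**
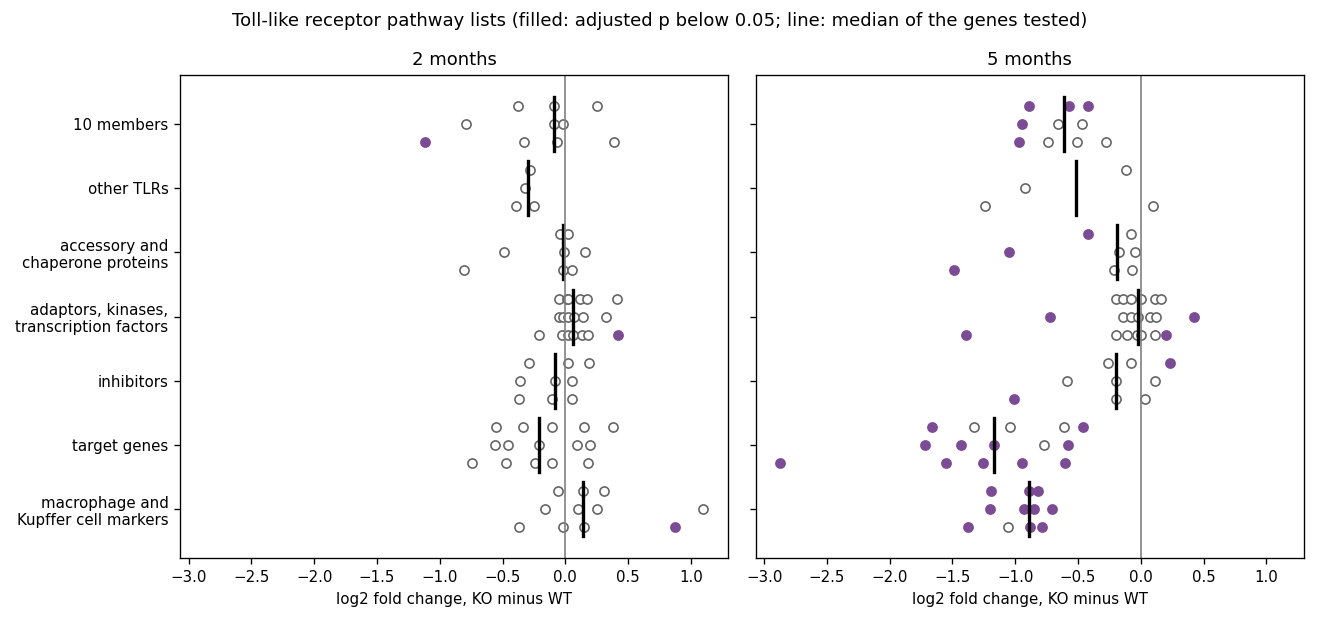
Log2 fold change, PPARγ-KO minus WT, of every tested gene of the members, the pathway lists and the macrophage markers (rows), at 2 months (left) and 5 months (right), with 1 point per gene, filled where the edgeR adjusted p was below 0.05, and a line at the list's median. At 5 months the medians are −0.62 for the members, −1.17 for the target genes and −0.89 for the macrophage markers, beside −0.02 for the adaptors, kinases and transcription factors.

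The genes whose levels were most like those of each member over the 12 libraries were searched among 13170 genes with a mean of at least 1 normalized CPM, by Pearson's r of log2 CPM. The 12 libraries share 4 group means, so r mostly follows the groups and is given as a description. Tlr5 was most like Adcy6, an adenylyl cyclase (r = 0.979), and Pnldc1, an RNA exonuclease gene (r = 0.969). Adcy6 had group means of 77.9 in WT and 43.6 in PPARγ-KO at 2 months, and of 39.8 and 25.7 normalized CPM at 5 months, the same order of groups as Tlr5. Cd14 was most like Cotl1, which encodes an actin-binding protein (r = 0.978), and Pak1, a kinase (r = 0.977). Tlr4 was most like Ifi207 and Tspan7 (r = 0.906 and 0.904), the lowest likeness of the 10 members. Tlr1 was most like Anxa3 and Serpinb6b (r = 0.965 and 0.946), and Tlr2 like Slc37a2 and Ncf1, a subunit of the phagocyte oxidase (r = 0.968 and 0.961). Tlr7 was most like St5 and Epsti1 (r = 0.956 and 0.954), and Tlr8 like Prcp and Adap1 (r = 0.967 and 0.965). Tlr13 was most like Tnfaip3, an inhibitor of NF-κB signalling, and Gpr65 (r = 0.966 and 0.952). Ly96 was most like Ramp1 and Ppp1r11 (r = 0.944 for each), and Myd88 like Dok2 and Serpina3g (r = 0.962 and 0.961).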

How the data were processed

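Read counts per gene of 12 liver libraries (3 per group) were used as the authors deposited them, with gene names, coordinates and lengths in the same tables. The study's methods give alignment to mm10 with STAR, and the submitters' processing notes name HISAT2. The counter, the annotation release and strand use are not given in the sources used here. Counts were tested with edgeR 4.0.16 (TMM scaling, filterByExpr, robust quasi-likelihood F-test, two-sided, Benjamini-Hochberg over all genes tested, called below an adjusted p of 0.05), in 1 fit per comparison and in 1 fit of all 12 libraries for the change of the genotype difference. The fits were tested on simulated data with changes larger than any genotype difference of the members, so that test does not cover differences of their size. Normalized CPM used TMM-scaled library sizes of all 12 libraries, and likeness used log2 CPM with a prior count of 2. The members and lists were chosen with earlier results of these data known. All 10 members are named, and of each pathway list up to 5 called genes, by size, at 2 and at 5 months.

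Repeat numbers were checked for pairing over the 5000 genes used for it. Same-numbered libraries deviated together at 2 months between the genotypes (r of 0.154 to 0.321), which was taken as possible pairing. They did not at 5 months (−0.0884 to −0.0184) or for each pair over time in WT (0.0308 to 0.267) or PPARγ-KO (−0.0357 to 0.252). These r are weak, as libraries of different number reached 0.104 between the genotypes at 2 months and 0.273 over time in WT. The main fits were unpaired, and the replicate block was run as an alternative. The source of the possible pairing at 2 months is these data, not the labels. Alternatives were DESeq2 1.42.0, other scalings, filters and thresholds, the replicate block, a joint fit and each library left out.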

Additional observations from a re-analysis of the deposited data

How the results depend on the processing

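The fits were rerun under other settings, and over the 10 members and 5 comparisons 700 values resulted, of which 634 kept their direction and their side of the threshold, 26 passed it newly, 28 lost it and 12 turned in sign without being called. The members called at 2 months, 1 in the report, were 2 at an adjusted p below 0.1, with library size as the only scaling, in DESeq2 and with no filter, where Tlr1 was added, and 1 with each library left out. At 5 months the 5 called members became 8 at an adjusted p below 0.1 and 8 with no filter, and 2 to 9 with a library left out. Over time in WT the 7 calls ranged from 6 to 9 with a library left out, and in PPARγ-KO the 5 calls from 3 to 5, with 3 under library size as the only scaling and 3 in the joint fit of 12 libraries. For the change of the genotype difference, 1 member was called at an adjusted p below 0.1, 1 in DESeq2 (Tlr7) and 1 with no filter (Cd14, edgeR adjusted p = 0.0399), and 0 to 0 with a library left out. With the replicate block, 1 member was called at 2 months, 5 at 5 months, 9 over time in WT, 5 in PPARγ-KO and 0 for the change, and it changed no other call than Tlr2 and Tlr8 in WT. Small values at 2 months that turned positive were Cd14 with the replicate block (0.02), Tlr4 and Cd14 without the second WT library (0.05 and 0.13), Tlr4, Tlr13 and Cd14 without the third (0.07, 0.13 and 0.17), Tlr4 without the first library labelled PPARγ-KO (0.21), Tlr13 without the second (0.08) and Cd14 without the third (0.12). With a library left out these 3 genes ranged from −0.30 to 0.21 (Tlr4), from −0.28 to 0.13 (Tlr13) and from −0.30 to 0.17 (Cd14). The change of the genotype difference turned for Tlr8 without the first 2-month WT library (0.06), and for Tlr1 without the first 5-month WT library (−0.16) and the second 5-month PPARγ-KO library (−0.01), with ranges of −0.31 to 0.06 for Tlr8 and −0.16 to 0.37 for Tlr1. Over all genes, the calls at 2 months were 519 in the report and 1063 at an adjusted p below 0.1, 988 in DESeq2, 1562 with no filter, 817 with the replicate block and 1153 in the joint fit, and those for the change were 238 and 519, 565 and 793 in the first 3 of these. Without division by gene length, 4 of 10 members kept their place in the order of levels in WT at 5 months. The cause of these shifts was not tested, and the left-out fits also held fewer libraries. With 3 libraries per group and members at 33 to 634 counts, SEs on the log2 scale between the genotypes ran from 0.0979 to 0.33, and differences as large as −0.79 (Tlr1 at 2 months) and −0.74 (Tlr2 at 5 months) were not called.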
